A study of Mus musculus with 4 samples.

Results

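Granzymes and perforin are the proteins by which cytotoxic lymphocytes kill a target cell, and 10 of their genes were followed here in effector CD4 cells from the inflamed spinal cord and from draining lymph nodes. The genes were Gzma, Gzmb, Gzmc, Gzmd, Gzme, Gzmf, Gzmg, Gzmk, Gzmm and Prf1. They were taken by symbol from 23990 gene symbols, and all 10 were found. The value of a gene is the sum of the FPKM of its transcripts, that is fragments per kilobase of transcript after scaling to the depth of the library, so levels of different genes can be compared per length.

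Both groups came from wild type C57BL/6 mice (C57BL/6J in the Methods) immunized with the MOG35-55 peptide in complete Freund's adjuvant, with pertussis toxin, and taken at the onset of experimental autoimmune encephalomyelitis (EAE), a mouse model of multiple sclerosis. Effector CD4 cells, sorted as CD44+ CD4 cells, came from the spinal cord (CNS, 2 libraries) or from pooled draining lymph nodes (dLN, 2 libraries). By the Methods, PMA and ionomycin were given to the cells for 4 h between sorting and lysis, and the labels mention no such step. Naive or unimmunized mice were not analysed here. The titles call every library WT, and Serpinb1a, given with the serpins below, was far lower in replicate 2 of both tissues. No source says that the 2 libraries of a tissue came from separate mice, so the p-values measure the spread between these libraries, which may be technical.

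Perforin, encoded by Prf1, forms pores in the membrane of the target cell, and granzymes are serine proteases that enter through these pores and cleave proteins inside. Both are stored in secretory granules and released at the contact between the cells. Granzyme A and granzyme K cut after basic residues, granzyme B cuts after aspartate and activates caspases, and granzyme M cuts after methionine or leucine. Natural killer cells and CD8 T cells are the usual source, and CD4 cells with cytotoxic granules have been described in chronic inflammation.

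Depth, as estimated from the spacing of low FPKM values, was 20.9 M and 21.7 M fragments in the CNS libraries and 18.6 M and 22.1 M in the dLN libraries. The T cell genes of the sort were present in all 4 libraries, with a summed FPKM of 13 CD4 T cell markers of 3828 and 3976 in CNS and 2896 and 2992 in dLN. The sums hide differences in both directions, with 7 of the 13 called higher and 4 lower in CNS. Of all genes tested, 37.8% were called higher and 37.2% lower in CNS, and the counts in this paragraph stand beside these shares. Cd4 was at 502 and 531 FPKM in CNS and at 82.0 and 66.7 FPKM in dLN. Cd40lg was at 141 and 134 FPKM in CNS and at 872 and 1036 FPKM in dLN. CNS replicate 2 stood apart. A list of 17 mast cell and granulocyte markers summed to 212 FPKM there and to 1.61, 2.41 and 2.09 FPKM in CNS replicate 1 and the dLN libraries, and S100a8 alone was at 101 FPKM there and at 0 in CNS replicate 1. The 15 microglia and macrophage markers summed to 218 FPKM in CNS replicate 2, 56.6 in CNS replicate 1, and 8.38 and 6.25 in dLN. The 19 CD8 T cell and NK cell markers summed to 33.5 and 128 FPKM in CNS and to 97.6 and 117 in dLN, where Cd160 alone made up 93.0 and 113 FPKM. Without Cd160 the other 18 summed to 27.6 and 121 FPKM in CNS and to 4.58 and 4.16 FPKM in dLN, higher in both CNS libraries. In CNS replicate 2 most of that sum was Tyrobp (55.9 FPKM) and Fcer1g (36.2 FPKM), which myeloid cells also express. The NK receptor gene Klrb1b was at 9.33 and 11.7 FPKM in CNS and at 0.0266 and 0.0223 FPKM in dLN, and Klrb1c, Klre1 and Itga2 were also called higher in CNS. Cd8b1 was at 3.66 and 4.56 FPKM in CNS and at 3.38 and 3.38 FPKM in dLN. Klri1, Klra1 and Kir3dl1 were at 0 in all 4 libraries, Cd8a reached at most 0.834 FPKM, and Ncr1 at most 0.581 FPKM. Neural markers (10 genes) summed to between 51.3 and 58.1 FPKM, most of it Mbp. Without Mbp the other 9 summed to 2.68 and 12.5 FPKM in CNS and to 0.5001 and 0.397 FPKM in dLN, highest in CNS replicate 2. B cell and plasma cell markers (7 genes) summed to between 1.46 and 2.80 FPKM. Of 21 genes that PMA and ionomycin induce in T cells, 16 were lower and 2 higher in CNS, with summed FPKM of 1741 and 2535 in CNS and 14051 and 15455 in dLN. Y-linked Eif2s3y was read at 44.7 and 34.7 FPKM in CNS and Xist at 26.6 and 22.3 FPKM in dLN, so the tissue, the table and the sex of the mice by these transcripts cannot be told apart. The part of any of these differences in the results that follow was not tested.

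The genes lie in 4 places of the mm10 genome. Gzma (chromosome 13, 113093827 to 113100981) and Gzmk (113171874 to 113180897) are neighbours with 70892 bases between them. Gzmb and the genes from Gzmc to Gzmg lie within 144642 bases of chromosome 14 (56117619 to 56262260), next to a group of mast cell protease genes. Gzmm (79689020 to 79695261) and Prf1 (61297836 to 61304263) lie apart from each other on chromosome 10. The 250 bases before the RefSeq start of 6 of them are shown because these genes take different parts in what follows: Gzma and Gzmk were read almost only in CNS, Gzmb in both tissues, Gzmc at a low level in both, Gzmd in no library, and Prf1 is the pore gene. The windows are Gzma chr13:113100982-113101231, Gzmk chr13:113180966-113181215, Gzmb chr14:56262335-56262584, Gzmc chr14:56234658-56234907 and Gzmd chr14:56132594-56132843, all on the minus strand, and Prf1 chr10:61297586-61297835 on the plus strand (RefSeq, GRCm38.p6). Each is written from 5′ to 3′, and capitals mark matches on either strand to the letters TGANTCA (AP-1), TGTGGT (Runx), GTGTGA (T-box) or ACGTCA (CRE, the cyclic AMP response element).
Gzma: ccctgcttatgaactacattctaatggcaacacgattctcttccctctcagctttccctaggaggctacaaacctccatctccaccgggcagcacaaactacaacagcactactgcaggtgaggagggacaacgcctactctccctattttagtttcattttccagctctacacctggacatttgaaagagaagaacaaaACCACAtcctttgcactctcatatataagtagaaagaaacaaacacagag
Gzmk: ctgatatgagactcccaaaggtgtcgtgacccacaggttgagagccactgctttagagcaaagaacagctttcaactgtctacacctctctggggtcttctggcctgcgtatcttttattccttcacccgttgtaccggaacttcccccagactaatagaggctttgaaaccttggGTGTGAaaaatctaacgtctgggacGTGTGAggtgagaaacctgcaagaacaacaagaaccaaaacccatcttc
Gzmb: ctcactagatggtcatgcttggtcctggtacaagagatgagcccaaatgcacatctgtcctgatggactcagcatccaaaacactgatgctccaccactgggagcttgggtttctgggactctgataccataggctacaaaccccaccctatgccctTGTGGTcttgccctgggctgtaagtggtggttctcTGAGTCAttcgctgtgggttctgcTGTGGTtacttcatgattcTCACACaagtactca
Gzmc: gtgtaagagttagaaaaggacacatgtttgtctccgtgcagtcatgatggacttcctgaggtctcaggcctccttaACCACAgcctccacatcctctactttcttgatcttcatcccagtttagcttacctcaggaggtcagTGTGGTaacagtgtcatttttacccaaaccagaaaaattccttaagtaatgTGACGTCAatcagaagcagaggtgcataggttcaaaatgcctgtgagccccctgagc
Gzmd: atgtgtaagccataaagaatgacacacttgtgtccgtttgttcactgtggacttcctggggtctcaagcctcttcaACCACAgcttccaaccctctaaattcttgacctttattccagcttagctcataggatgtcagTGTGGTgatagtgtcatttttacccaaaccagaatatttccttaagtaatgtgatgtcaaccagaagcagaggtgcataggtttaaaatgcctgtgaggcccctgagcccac
Prf1: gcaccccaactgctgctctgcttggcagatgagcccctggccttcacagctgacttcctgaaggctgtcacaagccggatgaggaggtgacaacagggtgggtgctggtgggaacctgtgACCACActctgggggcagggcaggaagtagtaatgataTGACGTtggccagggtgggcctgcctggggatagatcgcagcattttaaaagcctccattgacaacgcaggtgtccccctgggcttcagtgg

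Of 32851 such windows of all genes, 6.75% held the AP-1 letters, 14.05% the Runx letters, 12.3% the T-box letters and 6.47% the CRE letters. The Gzmb window held 1 AP-1 match that began 58 bases before the start, Runx matches at 93 and 34 bases and a T-box match at 15 bases. Among the windows of the 10 genes, the AP-1 letters were found in that of Gzmb alone. Gzmk held T-box matches at 74 and 49 bases and Gzma a single Runx match at 50 bases. Gzmc had Runx matches at 174 and 108 bases and 1 CRE site whose letters read the same on both strands, with starts at 57 and 55 bases. Gzmd shared 84.4% of its aligned upstream bases with Gzmc and held Runx matches at 174 and 112 bases but not the CRE letters. The Gzme window held no CRE letters either, while those of Gzmf and Gzmg did. Prf1 had 1 Runx match at 130 bases and 1 CRE match at 92 bases. Positions count from the RefSeq start used for the windows, which for Gzmb and Gzmk lies outside the transcript whose FPKM was used. On the minus strand that Gzmb transcript starts at 56262260 and the window at 56262335. For Gzmk these are 113180897 and 113180966. A match is a description of the letters, and binding was not measured.

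Gzma, Gzmb, Gzmk, Gzmm and Prf1 were higher in CNS than in dLN effector CD4 cells, Gzmc did not differ beyond the spread of its libraries, and Gzmd, Gzme, Gzmf and Gzmg were at or near 0 in both tissues. Of the 10 genes, 6 reached a mean of 1 FPKM in at least one tissue and were tested, 5 were called higher in CNS, and 0 were called lower. Of all 10634 genes tested with limma, 37.8% were called higher and 37.2% lower at a Benjamini-Hochberg adjusted p under 0.05. Both CNS libraries lay above both dLN libraries for 5 of the 6, and for 45.7% of all genes tested. Gzmk and Gzmm passed the minimum through CNS alone and could hardly have been called in the other direction, so the counts describe the genes and support nothing further. Log2 ratios are CNS over dLN on the log2(FPKM + 1) scale, on which differences of genes with low FPKM come out too small. In bulk RNA, fewer cells with a transcript and less transcript per cell cannot be told apart.

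**Figure D1:**
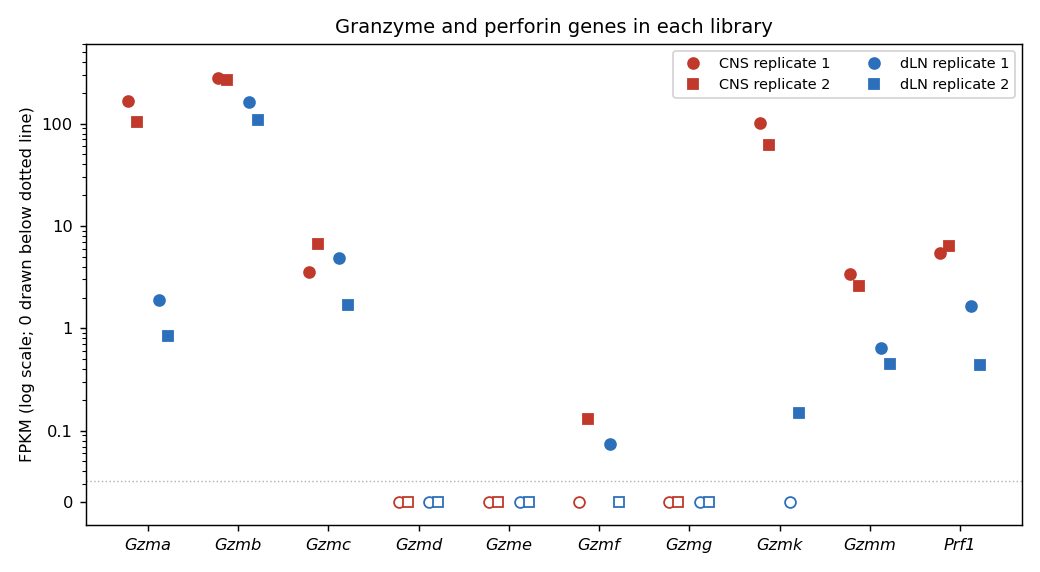
FPKM of each granzyme gene and Prf1 in each of the 4 libraries (log scale, with 0 drawn apart), CNS and dLN libraries as separate points. Gzma and Gzmk show the widest gap between the tissues, Gzmb is high in all 4 libraries, and Gzmd, Gzme and Gzmg lie at 0.

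Gzma, encoding the tryptase granzyme A, had 167 and 104 FPKM in the 2 CNS libraries against 1.88 and 0.849 FPKM in the 2 dLN libraries. The groups were far apart, and the lowest CNS library was well above the highest dLN library. CNS averaged 136 ± 44.9 FPKM and dLN 1.36 ± 0.726 FPKM (SD, n = 2 each), a ratio of means of 99.7. The log2 ratio was 5.85 with a standard error of 0.31 and an adjusted p of 0.000139 in limma. Counted from the highest ratio in CNS down, Gzma ranked 10 among all 10634 genes tested. The values rested on an estimated 2552 and 1543 fragments in CNS and on 24 and 13 in dLN, so the dLN level is the less precise one. By level, Gzma ranked 440 and 714 of all symbols in CNS and 8865 and 9675 in dLN. Leaving out any 1 library kept the call, with log2 ratios between 5.51 and 6.19, and a pseudocount of 0.1 in place of 1 gave 6.59.

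Gzmk, the other tryptase of the chromosome 13 pair, had 102 FPKM in CNS replicate 1 and 61.9 FPKM in CNS replicate 2, was at 0 in dLN replicate 1 and at 0.149 FPKM in dLN replicate 2. It was thus read at a high level in both CNS libraries and close to nothing in either dLN library. The CNS mean was 82.2 ± 28.7 FPKM (SD, n = 2), from an estimated 1377 and 802 fragments, against 0 and 2 fragments in dLN. The log2 ratio of 6.23 (SE 0.26, adjusted p 9.15e-05 in limma) ranked 8 among all genes tested. With pseudocount 0.1 it was 8.98, so its size depends on the pseudocount. Taken as fragments, 2179 against 2 gave a ratio of 1016 with an exact 95% interval of 281 to 8392, which covers counting error only.

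Gzma and Gzmk were both lower in CNS replicate 2 than in replicate 1, which is a single difference between 2 libraries. Replicate 2 had 0.621 times the Gzma and 0.604 times the Gzmk of replicate 1, and the ratio of Gzma to Gzmk was 1.63 in replicate 1 and 1.68 in replicate 2. Gzmm was also lower in replicate 2, at 0.762 times. Gzmb changed less, to 0.953 times, while Prf1 was at 1.18 times and Gzmc at 1.89 times. CNS replicate 2 is the library with the myeloid and granulocyte transcripts described above. It is also the CNS library with less Serpinb1a, given with the serpins below. Whether any of these differences are linked was not tested. In dLN, replicate 2 was the lower for Gzma (0.452 times), Gzmb (0.664 times), Gzmc (0.344 times), Gzmm (0.709 times) and Prf1 (0.265 times).

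Gzmb (chromosome 14, 56258858 to 56262260), encoding the caspase-activating granzyme B, was the most abundant granzyme transcript in each of the 4 libraries. It was at 278 and 265 FPKM in CNS and at 164 and 109 FPKM in dLN. The CNS libraries were close to each other and above both dLN libraries, which were further apart. CNS averaged 271 ± 9.16 FPKM and dLN 136 ± 38.9 FPKM (SD, n = 2 each), a ratio of 1.99. The log2 ratio was 1.02 (SE 0.20, adjusted p 0.00776 in limma), which ranked 2283 among all genes tested from the highest down. The call was lost when either CNS library was left out, with adjusted p of 0.0836 without replicate 1 and 0.0695 without replicate 2. Without a dLN library it held, and the log2 ratios of the 4 leave-outs ran from 0.73 to 1.31. In dLN, where Gzma and Gzmk were nearly absent, Gzmb still ranked 458 and 724 of all symbols.

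Gzmc (chromosome 14, 56231401 to 56234656), the neighbour of Gzmb and a granzyme gene known from activated killer cells, was low in both tissues. It was at 3.54 and 6.67 FPKM in CNS and at 4.92 and 1.69 FPKM in dLN, and the groups overlapped. The means were 5.10 ± 2.21 and 3.30 ± 2.28 FPKM (SD, n = 2 each), and the log2 ratio of 0.56 (SE 0.45) had an adjusted p of 0.302 in limma. Without dLN replicate 2 the log2 ratio was -0.0042, and without dLN replicate 1 it was 1.13, so a single library decided whether any difference was seen. These values do not show that the tissues were alike for Gzmc. About 4.14% of the 50-base words of the Gzmc transcript also occur in transcripts of other genes, which leaves little room for shared reads.

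Gzmd, Gzme and Gzmg, which follow Gzmc in the cluster, were at 0 in all 4 libraries. A count of 0 allows up to 3 fragments, which is 0.180 to 0.224 FPKM for these genes and libraries. Gzmf was at 0 and 0.129 FPKM in CNS and at 0.0748 and 0 FPKM in dLN, from an estimated 2 fragments and 1 fragment. No fold is given for it, since both tissues were under that limit. The transcripts of Gzmd and Gzme share 94.8% of their aligned bases, and between 19.4% and 21.9% of the 50-base words of Gzmd, Gzme, Gzmf and Gzmg are found in another gene. Reads from shared words could be split between these genes, but with all of them at or near 0 there was little to split. Of the 250-base windows, those of Gzmc and Gzmg were alike in 86.5% of aligned bases, although Gzmc was read in all 4 libraries and Gzmg in none.

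**Figure D2:**
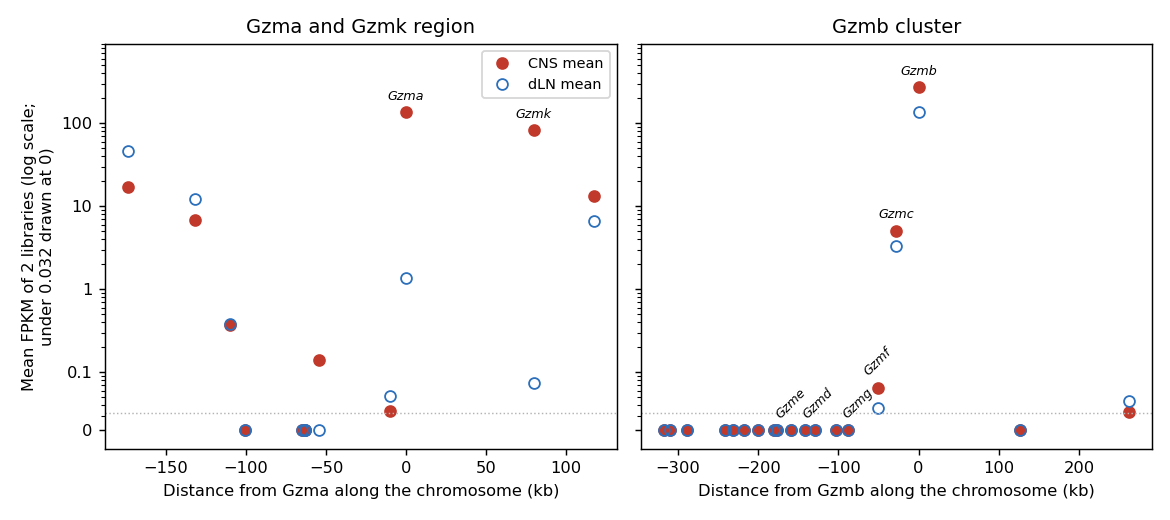
Mean FPKM (log scale) of the genes around Gzma and Gzmk and in the Gzmb cluster against distance along the chromosome in kb, filled points for CNS and open points for dLN (n = 2 each). High CNS values stand at Gzma and Gzmk, while in the Gzmb cluster only Gzmb and Gzmc rise above 1 FPKM.

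The level of each gene was set beside those of the other genes within 200 kb. Around Gzma and Gzmk there were 10 others, of which 3 reached 1 FPKM: Skiv2l2 and Dhx29, both lower in CNS (log2 ratios -1.38 and -0.78), and Esm1, higher (log2 ratio 0.90). Esm1 was at 15.4 and 11.4 FPKM in CNS and at 6.08 and 7.27 FPKM in dLN, well short of the gap at Gzma. In the Gzmb cluster 13 others were listed, among them the mast cell protease genes and cathepsin G, and 0 of them reached 1 FPKM, with a highest value in any library of 0.0561 FPKM. Gzmn, a granzyme gene of the cluster outside the 10, was at 0 in all 4 libraries. Around Prf1, 3 of 7 others were tested, with 0 higher and 1 lower in CNS. Around Gzmm, 11 of 28 were tested, with 3 higher and 6 lower.

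Gzmm, encoding granzyme M, was at 3.38 and 2.57 FPKM in CNS and at 0.638 and 0.453 FPKM in dLN. The CNS libraries were both above the dLN libraries, at a level far under that of Gzmb. The means were 2.98 ± 0.569 and 0.546 ± 0.131 FPKM (SD, n = 2 each), from an estimated 74 and 61 fragments in CNS and 13 and 11 in dLN. The log2 ratio was 1.36 (SE 0.17, adjusted p 0.00142 in limma), with 1.21 to 1.51 when a library was left out and 2.26 at pseudocount 0.1. The tables list 4 transcripts of Gzmm. The one of 1287 bases held 2.39 and 1.86 FPKM in CNS, the one of 1284 bases 0.372 and 0.713 FPKM, and such divisions between nearly identical transcripts are uncertain.

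Prf1, encoding the pore-forming protein perforin, was at 5.45 and 6.42 FPKM in CNS and at 1.65 and 0.436 FPKM in dLN. Both CNS libraries were above both dLN libraries, and the dLN libraries differed from each other by more than the CNS libraries did. The means were 5.93 ± 0.682 and 1.04 ± 0.856 FPKM (SD, n = 2 each), from an estimated 217 and 259 fragments in CNS and 57 and 18 in dLN. The log2 ratio was 1.83 (SE 0.31, adjusted p 0.0045 in limma), and 2.64 at pseudocount 0.1. As for Gzmb, the call was lost when a CNS library was left out, with adjusted p of 0.0503 without replicate 1 and 0.0589 without replicate 2. The log2 ratios of the 4 leave-outs ran from 1.39 to 2.27.

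**Figure D3:**
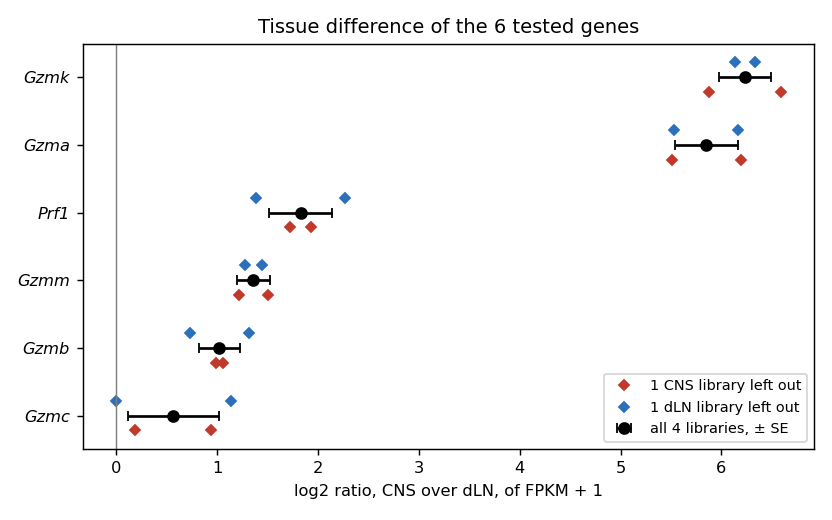
Log2 ratio of CNS over dLN on the log2(FPKM + 1) scale for the 6 tested genes, with the value over all 4 libraries and its standard error, and the values with 1 library left out. Gzma (5.85) and Gzmk (6.23) lie far from the other genes, and the values of Gzmc reach 0 when dLN replicate 2 is left out.

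The makeup of the granzyme transcripts differed between the tissues. The FPKM of the 9 granzyme genes summed to 555 and 440 in CNS and to 171 and 112 in dLN (497 ± 81.0 and 141 ± 42.0, SD, n = 2 each). Gzmb made up 50.1% and 60.2% of this sum in the CNS libraries and 95.6% and 97.2% in the dLN libraries. Gzma made up 30.2% and 23.6% in CNS and 1.10% and 0.759% in dLN. Gzmk made up 18.5% and 14.1% in CNS, 0% in dLN replicate 1 and 0.133% in dLN replicate 2. In dLN the granzyme transcripts were thus almost wholly Gzmb, while in CNS the chromosome 13 pair made up much of the sum. Gzmc made up 0.638% and 1.51% in CNS and 2.87% and 1.51% in dLN, and Gzmm at most 0.609% in any library. The share of Gzmb was 55.1 ± 7.14% in CNS and 96.4 ± 1.11% in dLN (SD, n = 2 each), a gap larger than the spread within either tissue. No test was run on the shares, and an exact two-sided permutation of 2 against 2 libraries cannot go below p = 0.333.

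**Figure D4:**
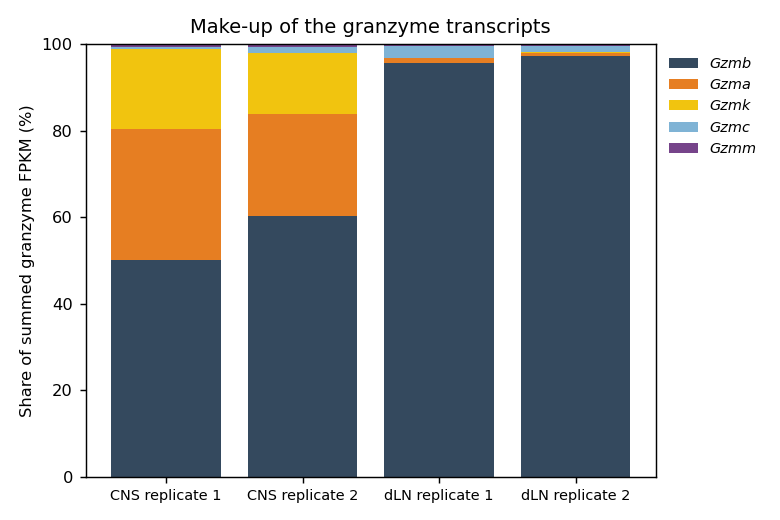
Share of the summed FPKM of the 9 granzyme genes (percent) taken by each gene in each of the 4 libraries, as stacked bars that start at 0. Gzmb takes 50.1% and 60.2% of the sum in CNS and over 95% in both dLN libraries, with Gzma and Gzmk making up most of the rest in CNS.

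Perforin transcripts were scarce beside those of the granzymes. The 9 granzyme genes together had 102 and 68.6 times the FPKM of Prf1 in CNS and 104 and 256 times in dLN. For Gzmb alone the ratio to Prf1 was 51.0 and 41.3 in CNS and 99.4 and 249 in dLN. The groups did not overlap for Gzmb over Prf1, and the dLN libraries differed widely. T cell receptor genes also differed between the tissues: Cd3d, Cd3e and Cd3g summed to 1445 and 1407 FPKM in CNS and to 318 and 274 FPKM in dLN. Set against that sum, Gzma was at 0.116 and 0.0739 in CNS and at 0.0059 and 0.0031 in dLN, still higher in both CNS libraries. Gzmb was at 0.192 and 0.188 in CNS and at 0.515 and 0.397 in dLN. Relative to Cd3d, Cd3e and Cd3g its order was thus the opposite of that in FPKM. Prf1 was at 0.00377 and 0.00456 in CNS and at 0.00518 and 0.00159 in dLN, and the groups overlapped. The higher level of Gzmb and Prf1 in CNS therefore depended on the denominator, and that of Gzma did not in these ratios. Of the 13 CD4 T cell markers, 7 were called higher and 4 lower in CNS, so other T cell genes as denominator could give another order. Cd247, another of these markers, encodes the zeta chain of the same receptor complex and was not in that sum. Cd247 was at 219 and 258 FPKM in CNS and at 313 and 319 FPKM in dLN. Gzmb and Prf1 were higher and Cd247 lower in CNS, so relative to Cd247 both kept their order in FPKM.

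The genes that process, store, release, restrain or regulate granzymes were followed as 6 lists, in which counts stand beside the 37.8% and 37.2% of all genes called higher and lower. The median log2 ratio of all genes tested was 0.05.

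Of 10 genes of granzyme processing and storage, 3 were higher in CNS, 4 were lower and 3 were not called, with a median log2 ratio of -0.30. Ctsw, encoding the lymphocyte protease cathepsin W, was at 416 and 423 FPKM in CNS and at 4.65 and 2.03 FPKM in dLN (log2 ratio 6.67). Nkg7, a granule membrane protein, was at 593 and 578 FPKM in CNS and at 27.9 and 11.9 FPKM in dLN (log2 ratio 4.93). Both were called higher in CNS, as Gzma and Gzmk were, with Ctsw at the larger ratio. M6pr, one of the receptors that carry granzyme precursors to the granule, was lower in CNS (118 and 120 against 550 and 618 FPKM, log2 ratio -2.28). Igf2r, another of these receptors, was called higher in CNS (12.8 and 14.2 against 10.4 and 9.68 FPKM, log2 ratio 0.39). The cathepsin gene Ctsc was not called, at 32.1 and 39.5 FPKM in CNS and at 36.9 and 35.2 FPKM in dLN. Ctsh, a cathepsin able to activate granzyme B, was at 1.17 and 12.7 FPKM in CNS against 0.0376 and 0.0315 FPKM in dLN. With a log2 ratio of 2.40, it had an adjusted p of 0.0548 in limma. Its high library was CNS replicate 2, the one with the myeloid transcripts.

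Of 18 genes of granule transport and release, 16 were tested, of which 8 were higher, 3 lower and 5 not called, with a median log2 ratio of 0.42. Rab27a, the GTPase that brings granules to the membrane, was at 54.6 and 53.4 FPKM in CNS and at 14.6 and 11.9 FPKM in dLN (log2 ratio 1.96). Its partners Sytl1 and Sytl2, synaptotagmin-like proteins, had log2 ratios of 3.03 and 2.85. Sytl1 rose from 2.70 and 2.18 FPKM in dLN to 25.7 and 28.4 FPKM in CNS. Vamp8, a vesicle fusion protein, was at 116 and 146 FPKM in CNS and at 29.4 and 23.0 FPKM in dLN (log2 ratio 2.28). The 3 genes called lower were Stx11, Kif5b and Sytl3, the last another synaptotagmin-like protein, with log2 ratios of -1.82, -0.61 and -0.80.

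Of 7 serpins listed with the granzymes, 6 were tested, of which 5 were higher in CNS, 0 lower and 1 not called, with a median log2 ratio of 2.10. Serpinb9, the inhibitor of granzyme B inside the cell, was at 35.0 and 30.8 FPKM in CNS and at 13.5 and 9.84 FPKM in dLN. The others named here are serpins known for cathepsins and other proteases more than for granzymes. Serpinb6a was at 42.4 and 39.5 FPKM in CNS and at 5.48 and 3.44 FPKM in dLN (log2 ratio 2.97). Serpina3g was at 113 and 109 FPKM in CNS and at 27.2 and 21.8 FPKM in dLN (log2 ratio 2.14), and Serpina3f had a log2 ratio of 2.06. Serpinb1a was at 65.9 and 3.45 FPKM in CNS and at 8.73 and 0.209 FPKM in dLN. Replicate 2 was thus the lower library in both tissues, and the reason was not tested. The titles call every library WT. The paper tells of earlier work with sb1-ko mice, which lack SerpinB1, and its Methods give the raw data per genotype. Whether the replicates were alike in genotype was not tested. On the log2(FPKM + 1) scale the Serpinb1a values within each tissue lay further apart than the tissue means. The log2 ratio of 2.33 had an adjusted p of 0.236 in limma.

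Of 19 regulators listed as activators of cytotoxic genes, 18 were tested, of which 10 were higher, 4 lower and 4 not called, with a median log2 ratio of 0.64. The interleukin receptors Il12rb2 and Il18r1 were the most raised of them. Il12rb2 was at 39.2 and 35.3 FPKM in CNS and at 1.95 and 0.983 FPKM in dLN (log2 ratio 3.98). Il18r1 was at 149 and 143 FPKM in CNS and at 13.5 and 8.13 FPKM in dLN (log2 ratio 3.68). Irf4 and Stat5a, transcription factors downstream of the T cell receptor and of interleukin 2, were lower in CNS, with log2 ratios of -3.31 and -2.84. Irf4 also belongs to the list of genes that PMA and ionomycin induce. It was at 30.8 and 39.7 FPKM in CNS and at 348 and 362 FPKM in dLN.

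Of 9 regulators listed as restraining cytotoxic genes, 5 were higher, 3 lower and 1 not called, with a median log2 ratio of 0.55, so activating and restraining regulators both held genes called in either direction. Bach2, a repressor of effector genes, was at 0.786 and 0.960 FPKM in CNS and at 11.1 and 13.2 FPKM in dLN (log2 ratio -2.81). Tcf7 and Lef1, factors of naive and memory T cells, were higher in CNS, with log2 ratios of 2.40 and 1.52. Zbtb7b, encoding ThPOK, which keeps CD8 lineage genes silent in CD4 cells, was at 32.4 and 39.1 FPKM in CNS and at 9.24 and 6.86 FPKM in dLN (log2 ratio 2.03).

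Of 15 death ligands and cytotoxic surface or secreted molecules, 14 were tested, of which 9 were higher, 1 lower and 4 not called, with a median log2 ratio of 1.93. Ccl5, a chemokine stored and secreted by cytotoxic cells, was at 1269 and 1019 FPKM in CNS and at 5.98 and 4.31 FPKM in dLN (log2 ratio 7.55). Klrd1, encoding CD94, was at 48.8 and 36.2 FPKM in CNS and at 0.875 and 0.531 FPKM in dLN (log2 ratio 4.67). The adhesion receptor Cd226 had a log2 ratio of 3.44. Slamf7 was the 1 gene of the list called lower in CNS, at 10.6 and 10.02 against 89.9 and 102 FPKM (log2 ratio -3.09). The CD8 T cell and NK cell markers given above included 5 called higher (Klrb1b, Klrb1c, Klre1, Itga2 and Fcer1g) and 1 lower (Cd160) of 8 tested. Their part in these values was not tested.

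**Figure D5:**
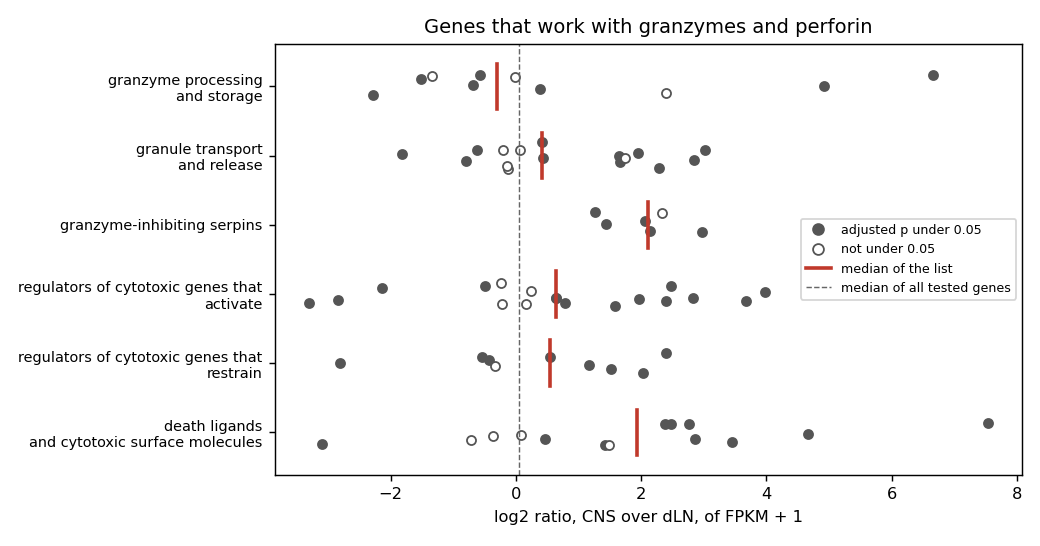
Log2 ratio of CNS over dLN on the log2(FPKM + 1) scale for each tested gene of the 6 lists, with the list median beside that of all 10634 genes tested (0.05). The serpins (median 2.10) and the death ligands and surface molecules (median 1.93) lie mostly above 0, and the other 4 lists spread to both sides.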

How the data were processed

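RNA of sorted effector CD4 cells was measured in 4 libraries (TruSeq RNA V2, HiSeq2500), 2 per tissue. Reads were trimmed and mapped by the authors, who deposited 1 table per tissue with the FPKM of 33819 RefSeq transcripts (mm10). The aligner and the FPKM program are not given in the sources used here. The CNS header holds both library names in 1 cell, whose order was used for its value columns. No column of per-sample values was left unused.

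FPKM was summed by symbol after joining the tables on transcript, and the 565 transcripts without a symbol (0.142% to 0.446% of FPKM) were left out. FPKM times length had a similar sum in each library, and the comparison of tissues runs across the 2 tables. The 10634 genes that averaged 1 FPKM or more in CNS or dLN entered limma 3.58.1 (lmFit, eBayes with trend, R 4.3.3) on log2(FPKM + 1), with Benjamini-Hochberg adjustment over all of them at 0.05. Depth and fragments per gene were derived from the spacing of low values with an effective length. Of these low values, 89.2% to 91.8% lay within 0.05 of a whole number of fragments, where an even spread gives 10%. The scripts were tested on simulated data. Intervals and limits cover counting error only.

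The genes named are the 10 members, neighbours within 200 kb that reach 1 FPKM, and the 4 tested genes of each list with the widest log2 ratio. Serpinb9, Stx11, Kif5b, Sytl3, Igf2r, Ctsc, Cd4, Cd247, Cd40lg and the marker sums without Cd160 or Mbp were added after values were seen. Members and lists were chosen with earlier results of these data known. Vamp7 and Zfp683 were not matched. Upstream windows came from the RefSeq table (all 10 members matched), and words and identities from GENCODE M21 transcripts, both GRCm38. Python 3.11.15 and Biopython 1.88 were used. Alternatives covered the pseudocount, scaling, transcripts, filters, a replicate block, eBayes without trend and leaving out each library.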

Additional observations from a re-analysis of the deposited data

How the results depend on the processing

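Over 14 alternatives, 77 of 82 values of the 6 tested genes had the sign and the call of the main result. The 4 calls lost were those of Gzmb and Prf1 without either CNS library, and the sign of Gzmc turned once (leave-out range -0.0042 to 1.13). Of the 10 genes, 5 were called, and 3 to 5 when a library was left out. A minimum of 1 FPKM in both tissues gave 3, since Gzmk and Gzmm were then not tested. Genes called overall ran from 6596 (without dLN replicate 2) to 8477 (no filter), against 7968. Rescaling to the same sum moved the median log2 ratio of all genes by -0.18 and the share of calls that were higher from 50.4% to 43.1%, and the same upper quartile moved them by 0.12 and to 55.6%.

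Samples with the same replicate number were not treated as pairs, since the labels do not say that the numbers pair them. The correlation of the replicate differences in CNS with those in dLN was 0.0933 over 10634 genes. With a single difference per tissue, this cannot show whether the samples were paired. A replicate block called 7828 genes, among them 5 of the 10. Depth limits statements on Gzmd to Gzmg to levels above about 0.2 FPKM, and 2 libraries per tissue leave every spread imprecise.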
